A study of Mus musculus with 12 samples.

Results

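The collagen cross-linking enzymes studied here were 8 genes, the 5 lysyl oxidases Lox, Loxl1, Loxl2, Loxl3 and Loxl4 and the 3 lysyl hydroxylases Plod1, Plod2 and Plod3, taken by symbol from the 27998 genes listed for each library. The rule reads gene symbols alone, although earlier results of these data were known when it was set. They were read in fibroblasts of the mouse mammary gland beside Col1a1, which encodes the alpha-1 chain of type I collagen, their most abundant substrate in connective tissue. In the fibroblasts whose gating markers were Tnc, Mfap4, Mdk, Penk and Scg3, Loxl1, Loxl2, Plod1 and Plod2 rose and Loxl4 fell in mice given 17β-estradiol (E2), alone or with progesterone (P4), while Lox, Loxl3 and Plod3 did not pass the test. These were 5 of 8 genes, in a subset where 29.8% of all genes tested passed. In the subset marked by Dpp4 2 of the 8 passed (11.1% of all genes did), in that marked by Fabp4 1 (13.1%) and in that marked by Gdf10 1 (3.12%).

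Collagen fibrils gain tensile strength from covalent cross-links. Lysyl hydroxylases act first, inside the endoplasmic reticulum, and convert lysines of the procollagen chain to hydroxylysine. Lysyl oxidases are copper-dependent enzymes that act mainly after secretion, where they oxidise lysine and hydroxylysine to reactive aldehydes from which cross-links in collagen and elastin form. In the mammary gland this matrix is laid down mainly by stromal fibroblasts around the ducts, and its stiffness is a known property of dense breast tissue.

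Cells came from the fourth mammary glands of C57BL/6J mice aged 43 weeks, and each of the 12 groups was 1 droplet-based 3′ single-cell RNA library. The Intact group had no VCD, and all others had received 4-vinylcyclohexene diepoxide (VCD), which destroys small ovarian follicles, by intraperitoneal injection at 160 mg/kg/day over 15 days. Groups VCD_Vehicle, VCD_E2 and VCD_E2_P4 received sesame oil, E2 (1 µg per animal a day) or E2 with P4 (1 mg per animal a day) in the last week, and VCD_E2_ICI received E2 with 1 injection of the estrogen receptor antagonist ICI (5 mg per animal). The same 3 hormone states were also made under a food mixture of polybrominated diphenyl ethers (PBDEs): a low dose (PBDE-47 at 0.05, PBDE-100 at 0.0028 and PBDE-153 at 0.0063 mg/kg/day) over 20 weeks in VCD_Low_PBDE, VCD_Low_E2 and VCD_Low_E2_P4, and a high dose (1, 0.056 and 0.126 mg/kg/day) over 1 week in VCD_High_PBDE, VCD_High_PBDE_E2 and VCD_High_PBDE_E2_P4. Dose and duration of PBDE therefore cannot be told apart, and mice without PBDE ate matched food with DMSO. A further vehicle group, VCD_Vehicle_NormEnv, was kept out of the hormone and PBDE tests because the sources used here do not say how it differed, and entered the comparison between fibroblast subsets. The number of mice in a library was not given in the sources used here, so each p-value rests on the spread between libraries, which may be partly technical. In comparisons between fibroblast subsets it rests on the spread of subset differences from library to library.

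The 12 libraries held 58620 cell barcodes with 41737881 to 109224969 unique molecular identifiers (UMIs) each, and 1.60 to 5.26% of the barcodes of a library also occurred in another. Of these barcodes 46257 passed the filters and 31436 were fibroblasts, which carried at least 3 of Pdgfra, Dcn, Lum, Dpt, Gsn and Serping1 and no UMI of epithelial, immune, endothelial or pericyte marker genes. Panels of 5 genes then placed 11160 cells in a Dpp4 gate (Dpp4, Pi16, Anxa3, Sema3c, Cd55), 6432 in a Fabp4 gate (Fabp4, Lpl, Pparg, Cd36, Cxcl14), 4285 in the Tnc gate and 3535 in a Gdf10 gate (Gdf10, F3, Fmo2, Inmt, Clec11a). The remaining 6024 fibroblasts (19.2%) were left ungated, and 2208 fibroblasts lay within 0.1 of the limit on the score scale. No cross-linking enzyme and no collagen was among the gating genes. Levels are counts per 1000000 UMIs (CPM) summed over the cells of 1 gate in 1 library, and in such sums fewer expressing cells and less RNA per cell cannot be told apart.

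The 8 genes lie on 7 chromosomes of the mouse genome, with Loxl1 and Plod2 both on chromosome 9 and the others on a chromosome each. In GENCODE M21 on GRCm38, Loxl1 (ENSMUSG00000032334) spans chr9:58287738-58313186 on the minus strand, Loxl2 (ENSMUSG00000034205) chr14:69609068-69695834 on the plus strand, Loxl3 (ENSMUSG00000000693) chr6:83034173-83052562 on the plus strand, and Loxl4 (ENSMUSG00000025185) chr19:42593982-42612813 on the minus strand. Plod1 (ENSMUSG00000019055) spans chr4:147909753-147936767 on the minus strand, Plod2 (ENSMUSG00000032374) chr9:92542223-92608428 on the plus strand and Plod3 (ENSMUSG00000004846) chr5:136987019-136996648 on the plus strand, and the identifier of Lox is ENSMUSG00000024529. Loxl3 overlaps Htra2 and Plod3 overlaps Znhit1 on the opposite strand, where Lox, Loxl2 and Plod2 overlap gene models without a functional name. Further, Loxl2, Loxl3 and Plod3 each hold a microRNA gene on their own strand, so reads shared with these neighbours remain an uncertainty of their counts.

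RefSeq promoter windows, from 250 bases before to 50 bases after the gene start on GRCm38.p6, were matched for 3 of the 8 genes: Plod1, which rose with estrogen in 3 gates, Loxl4, which fell in the Tnc gate, and Plod3, which passed in none. The sources used here held no window for the other genes, so these were not chosen by how the genes moved. Each is written 5′ to 3′ on the strand of its gene, with capitals marking the hypoxia response cores ACGTG and GCGTG on either strand. 
Plod1: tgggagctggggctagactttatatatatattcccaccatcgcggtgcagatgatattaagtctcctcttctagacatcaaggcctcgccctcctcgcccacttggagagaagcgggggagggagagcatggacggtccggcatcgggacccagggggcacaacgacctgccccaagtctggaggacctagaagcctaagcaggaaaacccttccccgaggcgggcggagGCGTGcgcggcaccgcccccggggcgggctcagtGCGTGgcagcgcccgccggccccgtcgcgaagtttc
Plod3: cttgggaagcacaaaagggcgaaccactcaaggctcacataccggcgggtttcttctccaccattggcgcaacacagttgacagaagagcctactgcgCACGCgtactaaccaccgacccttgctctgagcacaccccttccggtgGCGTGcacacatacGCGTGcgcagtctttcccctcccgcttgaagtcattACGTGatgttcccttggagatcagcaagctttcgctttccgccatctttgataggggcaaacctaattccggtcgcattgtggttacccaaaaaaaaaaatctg
Loxl4: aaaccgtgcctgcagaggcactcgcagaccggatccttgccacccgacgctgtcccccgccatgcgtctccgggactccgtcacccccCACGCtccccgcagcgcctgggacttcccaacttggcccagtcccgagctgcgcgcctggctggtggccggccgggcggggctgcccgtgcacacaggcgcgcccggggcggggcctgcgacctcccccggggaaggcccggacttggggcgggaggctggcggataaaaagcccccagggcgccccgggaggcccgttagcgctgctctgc
 The Plod1 window is chr4:147936727-147937026 (minus strand), the Plod3 window chr5:136986769-136987068 (plus strand) and the Loxl4 window chr19:42612757-42613056 (minus strand). Plod1 held 2 hypoxia response cores, Plod3 held 4 and Loxl4 held 1, and such a core was present in 43.8% of the 32851 promoter windows of the same length. The GC box GGGCGG, a site of Sp1 type factors, occurred 3 times in Plod1 and 3 times in Loxl4 but not in Plod3, and 35.7% of all windows held it. The half-site GGTCA of the estrogen response element was in none of the 3 windows and in 40.5% of all windows. The GC content was 64.3% in Plod1, 53.3% in Plod3 and 75% in Loxl4.

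The first question was whether the cross-linking enzymes belonged to fibroblasts among the cells captured. Over all libraries Loxl1, an oxidase best known for cross-linking elastin, was at 594 CPM in fibroblasts and 10.2 CPM in the 6587 immune cells. Lox, the founding member of its family, was at 235 against 5.33 CPM, Loxl2 at 222 against 4.60 CPM, and Plod2, which hydroxylates lysines of the collagen telopeptides, at 78.4 against 9.43 CPM. Each of the 8 genes was lower in immune cells than in fibroblasts in 12 of 12 libraries. Col1a1, which immune cells should lack, was at 22.4 to 300.4 CPM in them and highest in VCD_Low_E2_P4, and this is the background that free RNA and doublets can give. After cells were thinned to 5000 UMIs, which left out the shallower 369 of 4285 Tnc-gate cells, 617 of 11160 Dpp4-gate cells and 2005 of 6587 immune cells, Loxl1 was seen in 83.0% of Tnc-gate cells and 4.50% of immune cells (89.5% and 8.50% of all cells before thinning, with median depths of 13503 and 7235 UMIs). Loxl4 was seen in 6.13% of thinned Dpp4-gate cells and 0.0218% of immune cells (17.98% and 0.121% of all cells before thinning). The lysyl hydroxylases Plod1, at 77.1 against 25.6 CPM, and Plod3, at 50.5 against 28.7 CPM, had the smallest ratios of fibroblast to immune level of the 8 genes. Plod1, the widely expressed hydroxylase of helical lysines, reached 125 CPM in the 108 endothelial cells (95% counting interval 108 to 144), and Plod3, which also glycosylates hydroxylysine, was at 50.9 CPM (40.2 to 63.6) there. In the 69 Schwann cells Plod3 was at 92.1 CPM (64.5 to 127) and Plod1 at 74.2 CPM (49.7 to 107), and in the 46 pericytes at 65.3 CPM (40.4 to 99.8) and 77.7 CPM (50.3 to 115), so neither gene was clearly below its fibroblast level in these cells. Among the oxidases Loxl2, which also acts on the basement membrane collagen IV, had the highest ratio of endothelial to fibroblast level, at 79.3 CPM (65.8 to 94.9) against 222 CPM. The values of these types rest on few cells per library, and counting intervals here and later cover counting error only.

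The fibroblast gates differed in the set of enzymes they carried, beyond the spread of gate differences from library to library. The test was edgeR's quasi-likelihood test with the library as a block, 1 gate compared with the average of the others. Dpp4-gate cells had high Loxl1 and Loxl4 and low Lox and Plod1; in the Fabp4 gate, Plod1, Loxl2 and Lox stood high; in the Tnc gate, Lox stood highest; and in the Gdf10 gate, Loxl1, Loxl2 and Lox stood low. Loxl4, the least abundant oxidase here, was at 12.1 ± 2.81 CPM (SD, n = 12 libraries) in the Dpp4 gate, 7.37 ± 1.05 in the Gdf10 gate, 3.73 ± 1.97 in the Tnc gate and 1.98 ± 0.533 in the Fabp4 gate. It was highest in the Dpp4 gate in 12 of 12 libraries, with a log2 difference of 1.74 (SE 0.12, adjusted p = 7.2e-16). Plod1 showed the reverse order, at 167 ± 24.6 CPM in the Fabp4 gate, 77.5 ± 26.0 in the Tnc gate, 57.1 ± 10.0 in the Gdf10 gate and 29.7 ± 8.79 in the Dpp4 gate. It was highest in the Fabp4 gate and lowest in the Dpp4 gate in 12 of 12 libraries, and the Fabp4 gate differed from the others by 1.77 on the log2 scale (SE 0.07, adjusted p = 5.1e-23). The Tnc and Gdf10 levels of Plod1, neighbours in this order, overlapped over the 12 libraries, but within a library Plod1 was higher in the Tnc gate in 11 of 12, all but VCD_Vehicle.

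Lox was at 414 ± 76.4 CPM in the Tnc gate, 286 ± 40.2 in the Fabp4 gate, 148 ± 34.7 in the Gdf10 gate and 121 ± 72.6 in the Dpp4 gate, and was highest in the Tnc gate in 11 of 12 libraries (log2 difference 1.21, SE 0.13, adjusted p = 1.3e-10). The Gdf10 and Dpp4 gates, the lowest pair for Lox, were not separated by their spread over all 12 libraries. The Gdf10 gate was higher in 7 of 12, and the libraries where it was not were all given E2 without ICI. In VCD_Vehicle, VCD_Low_PBDE and VCD_High_PBDE the Gdf10 gate was at 148 to 210 CPM and the Dpp4 gate at 57.8 to 70.2 CPM. Loxl1 was at 712 ± 62.6 CPM in the Dpp4 gate, 682 ± 294 in the Tnc gate, 487 ± 115 in the Fabp4 gate and 298 ± 44.6 in the Gdf10 gate. The wide spread of Loxl1 in the Tnc gate came with the hormone groups described next, and the gene was highest in the Tnc gate in 4 libraries and in the Dpp4 gate in 8. Loxl2 was at 299.97 ± 34.5 CPM in the Fabp4 gate, 219 ± 58.3 in the Tnc gate, 177 ± 27.5 in the Dpp4 gate and 136 ± 20.9 in the Gdf10 gate. Both Loxl1 and Loxl2 were lowest in the Gdf10 gate in 12 of 12 libraries, with log2 differences of -0.96 (SE 0.10, adjusted p = 5.3e-11) and -0.68 (SE 0.08, adjusted p = 2.2e-09).

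Plod2 was at 99.2 ± 52.2 CPM in the Tnc gate, 85.6 ± 15.8 in the Fabp4 gate, 65.0 ± 21.6 in the Dpp4 gate and 64.1 ± 32.6 in the Gdf10 gate, values that overlapped between neighbouring gates. Within libraries the Fabp4 gate was above the Dpp4 gate in 11 of 12, the Tnc gate above the Fabp4 gate in 6 and the Dpp4 gate above the Gdf10 gate in 7. The 6 libraries with the Tnc gate above the Fabp4 gate were those given E2 without ICI. The libraries where the Dpp4 gate was not above the Gdf10 gate were all among these. Loxl3, an oxidase needed for palate and spine development, and Plod3 were the most even genes, with gate means of 37.9 to 42.6 CPM for Loxl3 and 46.8 to 59.1 CPM for Plod3. Plod3 was still highest in the Tnc gate in 11 of 12 libraries. Higher genes numbered 3 of 8 in the Dpp4 gate, where 36% of all genes tested were higher, 4 in the Fabp4 gate (30.7%), 4 in the Tnc gate (29%) and 1 in the Gdf10 gate (23%). Lower genes numbered 5 in the Dpp4 gate (36.1% of all genes), 2 in the Fabp4 gate (29.2%), 1 in the Tnc gate (28%) and 5 in the Gdf10 gate (25.9%). With such large backgrounds a pass was common for any gene, and the size and order of the differences carry more than the counts. Several of the small differences depended on settings. The call of Plod2 in the Fabp4 gate held in 2 of 9 other settings and in 4 of 12 fits with 1 library left out, and that in the Dpp4 gate in 6 and 5. Over these fits 6 to 8 enzymes passed in either direction in the Dpp4 gate, 4 to 6 in the Fabp4 gate, 4 to 6 in the Tnc gate and 5 to 7 in the Gdf10 gate. With cells gated by a single lead gene, Loxl2 differed by 0.0099 instead of -0.20 in the Dpp4 gate and by -0.36 (adjusted p = 0.0325) instead of 0.08 in the Tnc gate.

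**Figure D1:**
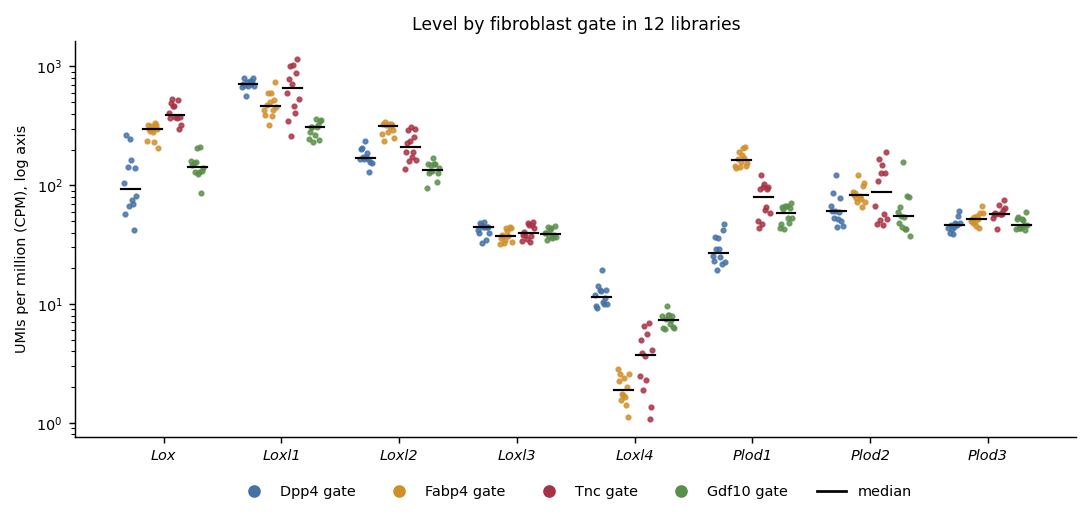
Levels of the 8 cross-linking enzymes (CPM, log axis) in the 4 fibroblast gates, with 1 point per library and a bar at the median of 12 libraries. Plod1 is highest in the Fabp4 gate and lowest in the Dpp4 gate in every library, and Loxl4 is highest in the Dpp4 gate. Loxl3 and Plod3 are at similar levels in the 4 gates, with Plod3 highest in the Tnc gate in 11 of 12 libraries.

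The next question was what E2, alone or with P4, did to the enzymes after VCD. For this the 9 libraries crossing 3 hormone states with 3 PBDE states were fitted together, with PBDE as an additive term, and the average of both hormone treatments was compared with no hormone. The main response was in the Tnc gate, where 4 of 8 enzymes rose (15.3% of 11899 genes did) and 1 fell (14.5% did). The median log2 change of the 8 genes was 0.36, beside -0.02 over all genes. Col1a1 itself, at 3239, 3230 and 3950 CPM in VCD_Vehicle, VCD_Low_PBDE and VCD_High_PBDE, was at 9315, 8244 and 13432 CPM with E2 and at 19913, 18208 and 17540 CPM with E2 + P4 (log2 change 1.94, SE 0.13, adjusted p = 1.3e-05). In what follows, values in the Tnc gate are listed in the same order, without PBDE, with low PBDE and with high PBDE.

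Loxl1 was at 349.6, 262 and 408 CPM without hormone, at 778, 715 and 882 CPM with E2 and at 1018, 1023 and 1162 CPM with E2 + P4. All 6 hormone libraries lay above the 3 others, and the log2 change was 1.40 (SE 0.10, adjusted p = 1.7e-05, edgeR's quasi-likelihood test with Benjamini-Hochberg adjustment, as for all changes below). Loxl2 moved less, from 192, 159.7 and 189 CPM without hormone to 227, 237 and 253 CPM with E2 and 291, 307 and 296 CPM with E2 + P4. Its groups did not overlap either, and the change was 0.51 (SE 0.09, adjusted p = 0.00282). Loxl4 was the gene that fell, from 4.98, 6.53 and 6.92 CPM to 3.86, 3.65 and 1.09 CPM with E2 and 1.88, 2.31 and 1.37 CPM with E2 + P4. Each hormone library was below each library without hormone, with a change of -1.42 (SE 0.32, adjusted p = 0.00887), but the gene was read from as few as 6 UMIs in a library. Lox was at 372, 461 and 522 CPM without hormone, at 488, 464 and 297 CPM with E2 and at 528, 373 and 372 CPM with E2 + P4. These ranges overlapped fully and no change was detected (log2 change -0.18, SE 0.18, adjusted p = 0.475). Loxl3 ran from 35.3 to 38.3 CPM without hormone and from 37.9 to 48.9 CPM with it, and did not pass (log2 change 0.20, adjusted p = 0.158).

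Of the lysyl hydroxylases, Plod2 was at 46.9, 51.4 and 57.5 CPM without hormone, at 108, 128 and 127 CPM with E2 and at 167, 148 and 191 CPM with E2 + P4. The groups were well apart and the log2 change was 1.41 (SE 0.11, adjusted p = 2.4e-05), close to that of Loxl1. Plod1 was at 43.4, 46.8 and 65.3 CPM without hormone, at 92.9, 97.0 and 93.2 CPM with E2 and at 121, 103 and 97.6 CPM with E2 + P4. It too did not overlap, with a change of 0.93 (SE 0.14, adjusted p = 0.000997). Plod3 lay between 42.9 and 57.5 CPM without hormone and between 57.5 and 74.7 CPM with it, and did not pass (log2 change 0.20, adjusted p = 0.230). The plot of Tnc-gate values by hormone state shows Loxl1, Loxl2, Loxl4, Plod1 and Plod2 apart between libraries with and without hormone, and Lox mixed. Loxl3 and Plod3 overlap only narrowly, and neither passed. Their highest values without hormone are 38.3 and 57.53 CPM and their lowest with hormone 37.9 and 57.49 CPM.

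**Figure D2:**
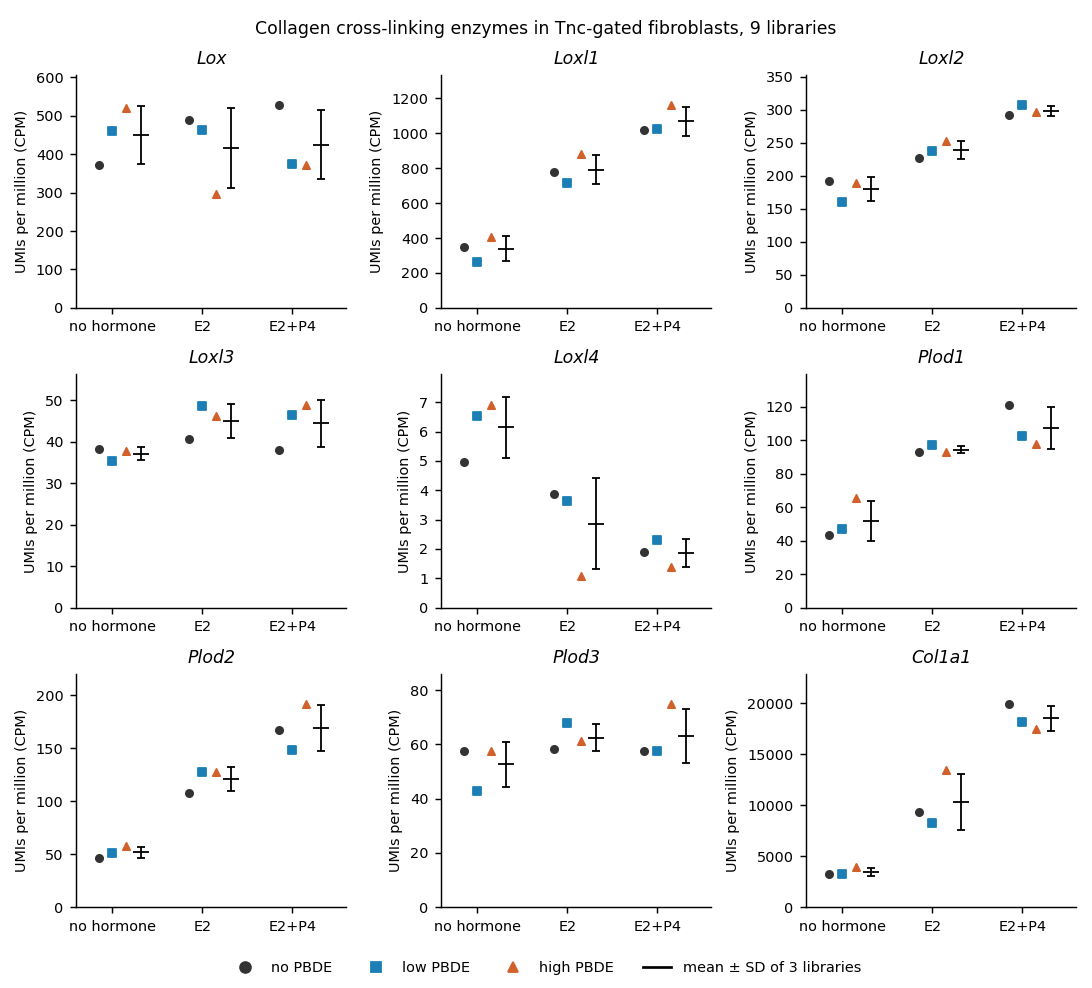
CPM of each enzyme and of Col1a1 in the Tnc gate in the 9 libraries, by hormone state, with 1 point per library marked by PBDE level and the mean ± SD of 3 libraries beside them. The hormone libraries of Loxl1, Loxl2, Plod1, Plod2 and Col1a1 lie above all libraries without hormone, those of Loxl4 below, and those of Lox overlap.

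Several measures moved with estrogen in this gate. Cells were deeper, with library medians of 8917 to 11291 UMIs without hormone and 16185 to 27335.5 UMIs with it. With cells thinned to 5000 UMIs, and the shallower 125 of 1318 cells without hormone and 196 of 1849 with it left out, Loxl1 (1.57), Plod2 (1.55), Plod1 (1.06) and Loxl2 (0.63) still rose, and Loxl4 was too low to be tested. Of the gating panel Mfap4 rose and Penk, Tnc and Scg3 fell, and the summed panel level was 1693 to 2067 CPM without hormone and 1517 to 1805 CPM with it. The Fabp4 panel summed to 1205 to 1359 CPM without hormone and 1391 to 1858 CPM with it (Cxcl14 of 5 rose, Pparg fell), the Gdf10 panel to 276 to 368 CPM and 202 to 452 CPM (Clec11a of 5 rose, Fmo2 and Gdf10 fell), and the Dpp4 panel to 569.8 to 716 CPM and 476 to 780.2 CPM (Dpp4 of 5 fell). With cells instead gated on Tnc alone, Loxl1 (2.13), Plod2 (1.71), Loxl2 (1.44) and Plod1 (0.75) rose, Lox fell by 1.10 on the log2 scale (adjusted p = 0.000281) and Loxl4 could not be tested. The Tnc gate held 8.78 to 21.7% of the fibroblasts of a library without hormone and 9.79 to 14.9% with it. Deposited files carried 1 of 2 name tags of unknown meaning, and within either tag Loxl1 (1.55 and 1.19), Plod2 (1.43 and 1.33), Plod1 (1.22 and 0.57), Loxl2 (0.55 and 0.52) and Loxl4 (-0.84 and -1.42) kept their direction, while Lox did not (0.29 and -0.49). In each pair the second value rests on VCD_High_PBDE as the only library without hormone. With low PBDE, the library without hormone carried the other tag than the hormone libraries. By the choice of cells, Ptprc, Cd52, Pecam1, Cspg4, Epcam and Krt14 were at 0 UMIs. The immune panel summed to 4.98 to 6.00 CPM without hormone and 3.80 to 15.6 CPM with it (0 of 4 genes tested changed), the pericyte panel to 49.3 to 51.4 CPM and 15.2 to 26.6 CPM (Kcnj8 and Abcc9 of 3 fell), and the fibroblast panel to 54153 to 61044 CPM and 22505 to 34933 CPM (Dpt, Gsn, Serping1 and Dcn of 6 fell, Lum rose). The basal epithelial panel, of which only Acta2 was tested and rose, summed to 2.595 to 4.59 CPM without hormone and 4.44 to 33.7 CPM with it. The endothelial panel, of which only Egfl7 was tested and rose, summed to 0.706 to 1.25 CPM and 1.90 to 3.66 CPM. The Schwann panel summed to 17.3 to 22.2 CPM and 10.3 to 17.5 CPM (Mbp of 4 fell), and the luminal panel to 7.94 to 9.65 CPM and 3.37 to 16.7 CPM (0 of 1 changed). The part of the gate's makeup in these changes was not tested.

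In the other gates fewer enzymes passed the same test. In the Dpp4 gate 2 of 8 rose (5.7% of genes did) and none fell (5.36% did). Plod1 was at 23.0, 19.5 and 21.9 CPM without hormone, at 36.6, 35.9 and 42.1 CPM with E2 and at 29.1, 29.2 and 47.1 CPM with E2 + P4 (log2 change 0.73, SE 0.12, adjusted p = 0.0119). Loxl3 was at 40.0, 32.7 and 34.4 CPM without hormone and between 44.2 and 49.1 CPM in the 6 hormone libraries (0.36, SE 0.06, adjusted p = 0.0128). For both genes the groups did not overlap, but neither passed without VCD_Low_PBDE or with a term for the name tag. With that term the changes were 0.78 for Plod1 (adjusted p = 0.0677) and 0.31 for Loxl3 (adjusted p = 0.0939, edgeR). Loxl3 also did not pass with cells thinned (0.27, adjusted p = 0.182). No tested marker of another cell type changed in this gate, and of the fibroblast panel, at 31946 to 36286 CPM without hormone and 24349.5 to 34375 CPM with it, Pdgfra and Lum rose. Of the panels of the other fibroblast gates, Mfap4 of the Tnc panel rose (37.3 to 40.7 and 38.2 to 64.6 CPM), as did Fmo2 of the Gdf10 panel (75.8 to 122 and 77.2 to 238 CPM), and their part in the changes was not tested. Lox, at 57.8, 66.8 and 70.2 CPM without hormone, was at 264, 245 and 42.3 CPM with E2 and at 144, 162 and 139.8 CPM with E2 + P4. VCD_High_PBDE_E2 thus stood below the libraries without hormone and the other 5 above them, and the change did not pass (1.21, SE 0.45, adjusted p = 0.117). Of the 9 fits that left out 1 library, the one without VCD_High_PBDE_E2 alone passed (1.56, adjusted p = 0.00105), and the other 8 gave 0.94 to 1.67 with adjusted p from 0.0961 to 0.365 in edgeR. VCD_High_PBDE_E2 also had the lowest Lox of the 9 libraries in the Tnc gate (297 CPM) and the Gdf10 gate (85.4 CPM). In the Fabp4 gate it did not, with Lox at 320 CPM.

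In the Fabp4 gate Loxl1 was the 1 gene that rose (7.12% of genes did), from 387, 321 and 428 CPM to 473, 506 and 526 CPM with E2 and 597, 595 and 739.7 CPM with E2 + P4 (log2 change 0.53, SE 0.08, adjusted p = 0.0042). No enzyme fell there, where 6% of genes did. In this gate the fibroblast panel summed to 69337 to 80152 CPM without hormone and 35990 to 56501 CPM with it (Dpt, Gsn, Serping1 and Dcn of 6 fell, Lum rose), and the gate's own panel to 5436 to 7058 CPM and 7574 to 10978 CPM (Fabp4 and Cd36 of 5 rose, Cxcl14 fell). Of other cell types Acta2 of the basal panel rose (panel at 2.95 to 3.96 and 2.93 to 11.8 CPM), Abcc9 and Notch3 of 4 pericyte genes fell (47.4 to 58.5 and 24.4 to 45.6 CPM), and Mbp of 3 Schwann genes fell (13.6 to 18.6 and 13.2 to 20.2 CPM). Of the panels of the other fibroblast gates, Mdk, Tnc and Mfap4 of the Tnc panel rose (139 to 197 CPM without hormone and 196 to 348 CPM with it), and of the Gdf10 panel Clec11a and Gdf10 rose and Inmt fell (222 to 251 and 181 to 240.0 CPM). Their part in the change of Loxl1 was not tested. In the Gdf10 gate Plod1 rose (2.14% of genes did) and none fell (0.979% did). Plod1 was at 47.5, 43.1 and 48.3 CPM without hormone, at 65.5, 66.7 and 64.5 CPM with E2 and at 63.2, 66.7 and 70.4 CPM with E2 + P4 (log2 change 0.58, SE 0.09, adjusted p = 0.00594), with no overlap, but did not pass without VCD_Low_PBDE, with a term for the name tag (0.54, adjusted p = 0.0681) or with single lead gene gates (0.43, adjusted p = 0.127). The immune panel summed to 2.45 to 6.53 CPM without hormone and 6.50 to 19.6 CPM with it in this gate (Tyrobp of 3 rose), the luminal panel to 6.13 to 9.30 CPM and 6.44 to 19.3 CPM (Krt19 of 2 rose), the pericyte panel to 53.2 to 75.4 CPM and 51.8 to 95.7 CPM (Notch3 of 3 fell), and the fibroblast panel to 62249 to 71666 CPM and 49572 to 56767 CPM (Lum of 6 rose). Of the panels of the other gates, the Fabp4 panel summed to 1469 to 1703 CPM without hormone and 1165 to 1375 CPM with it (Cxcl14 of 5 fell), the Dpp4 panel to 517 to 586 CPM and 346 to 920.0 CPM (Sema3c of 5 rose), and the Tnc panel to 292 to 406 CPM and 236 to 371 CPM (Mfap4 of 4 rose, Scg3 fell), and the part of these markers in the change was not tested. Plod2 in the Gdf10 gate was at 48.2, 44.9 and 42.9 CPM without hormone, at 65.2, 157 and 81.7 CPM with E2 and at 55.0, 54.5 and 79.8 CPM with E2 + P4. These groups did not overlap, yet VCD_Low_E2 stood far above the rest and the change missed the threshold (0.84, SE 0.23, adjusted p = 0.0666). The change passed with DESeq2, cells thinned, the deepest cells left out, a gate margin of 1, no filter or the second vehicle library. It also passed without VCD_E2 or without VCD_Low_E2_P4. Plod1 passed in 3 of 4 gates, with changes of 0.58 to 0.93 on the log2 scale, but in the Tnc gate alone without VCD_Low_PBDE or with the tag term, where Loxl1 passed in both the Fabp4 and Tnc gates. The Plod1 changes themselves were 0.78 (Dpp4 gate) and 0.54 (Gdf10 gate) with the tag term. With 1 library left out they were 0.59 to 0.84 and 0.54 to 0.62.

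**Figure D3:**
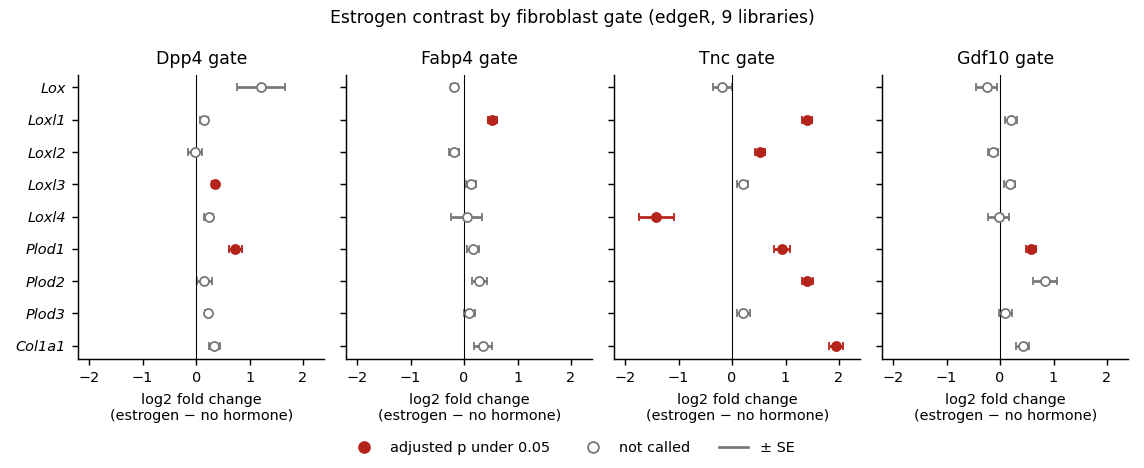
Log2 change with estrogen (both hormone treatments averaged, compared with no hormone) of the 8 enzymes and Col1a1 in the 4 gates; bars are standard errors of the fit over 9 libraries and filled points have an adjusted p under 0.05. The largest changes are those of Loxl1, Plod2, Loxl4 and Col1a1 in the Tnc gate.

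Whether a gate responded differently from the other 3 was tested as an interaction of gate and estrogen. In the Tnc gate Loxl1 rose more than elsewhere by 1.11 on the log2 scale (SE 0.08, adjusted p = 1.2e-07), Plod2 by 1.00 (SE 0.15, adjusted p = 5.8e-05), Loxl2 by 0.63 (SE 0.12, adjusted p = 0.000849) and Plod1 by 0.46 (SE 0.16, adjusted p = 0.0495). Loxl4 differed by -1.46 (SE 0.28, adjusted p = 0.000702), so its change was lower there than in the other 3 gates. That made 4 genes with a higher signed change than elsewhere (11.7% of 13149 genes) and 1 with a lower one (12.2%), Loxl4, which fell there, and Plod1 is at the threshold, since it was lost when any 1 of VCD_Vehicle, VCD_Low_PBDE, VCD_E2, VCD_Low_E2, VCD_E2_P4 or VCD_Low_E2_P4 was left out. With single lead gene gates Plod1 was lost and Lox passed, and Lox also passed without VCD_High_PBDE_E2. For the Dpp4 gate, Lox (1.39, SE 0.27, adjusted p = 0.00158) and Loxl4 (0.70, SE 0.19, adjusted p = 0.0164) had the higher signed change (8.15% of genes), and Loxl1 (-0.57, SE 0.07, adjusted p = 4.7e-05) and Plod2 (-0.71, SE 0.13, adjusted p = 0.00106) the lower (8.7%), and Loxl4 was lost without VCD_Low_PBDE. In the Fabp4 gate no enzyme had a higher one (1.77% of genes), and Plod1 (-0.58, adjusted p = 0.0297) and Plod2 (-0.50, adjusted p = 0.0413) had a lower one (1.73%), and both were lost without any 1 of VCD_Vehicle, VCD_Low_PBDE, VCD_E2 or VCD_Low_E2. In the Gdf10 gate no enzyme had a higher one (2.68% of genes) and Loxl1 had a lower one (-0.49, adjusted p = 0.00166, 1.6%). The Plod2 change in the Dpp4 gate averages E2 libraries at 77.6 to 121 CPM and E2 + P4 libraries at 44.8 to 53.5 CPM. Without hormone Plod2 was at 59.9 to 61.3 CPM there. The plot of Lox and Plod2 in all gates shows the unlike course of these genes: the hormone libraries of Plod2 are set apart in the Tnc gate and those of Lox in the Dpp4 gate, except VCD_High_PBDE_E2.

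**Figure D4:**
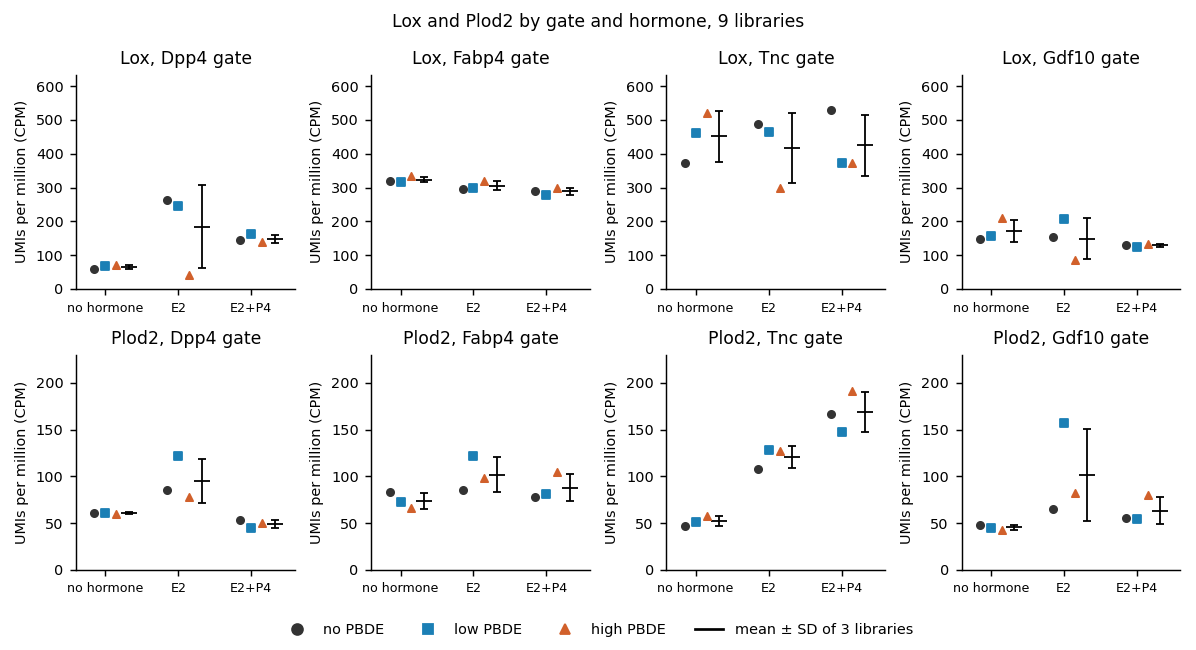
CPM of Lox and Plod2 in the 4 gates, by hormone state, with 1 point per library marked by PBDE level and the mean ± SD of 3 libraries beside them. Lox in the Dpp4 gate is at 57.8 to 70.2 CPM without hormone and at 139.8 to 264 CPM in 5 of 6 hormone libraries, and Plod2 in the Tnc gate is at 46.9 to 57.5 CPM without hormone and at 108 to 191 CPM with it.

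P4 was assessed as E2 + P4 against E2, which shares the E2 libraries with the comparison above. No enzyme passed in any gate with edgeR's quasi-likelihood test (0% of genes did in the Dpp4 gate, 0.783% in the Fabp4 gate, 1.87% in the Tnc gate and 0.276% in the Gdf10 gate). At an unadjusted p under 0.05 the counts were 2, 1, 3 and 4 enzymes, where 9.9%, 17.4%, 16.6% and 9.58% of genes were. DESeq2 passed Plod2 in the Dpp4 gate (0.858% of genes) and Loxl1 in the Tnc gate (2.28%). In other edgeR settings Plod2 in the Tnc gate passed with a 10% mitochondrial limit, a gate margin of 1 or single lead gene gates. It also passed with the second vehicle library or without a filter, where Loxl1 passed too. The changes nearest the threshold were those of Plod2 (0.48, SE 0.11, adjusted p = 0.0617) and Loxl1 (0.44, SE 0.11, adjusted p = 0.0756) in the Tnc gate, where each E2 + P4 library lay above each E2 library for both genes. The same 2 groups were also apart for Loxl2 and Plod1 in that gate. Elsewhere they were apart for Loxl4 and Plod2 (Dpp4 gate), Loxl1 (Fabp4 gate) and Loxl3 (Gdf10 gate). The share of all genes apart in this way was not taken, so these separations are a description only. Plod2 went the other way in the Dpp4 gate, at 53.5, 44.8 and 49.9 CPM with E2 + P4 against 85.6, 121 and 77.6 CPM with E2, without passing (-0.84, SE 0.16, adjusted p = 0.165). Without hormone Plod2 was at 59.9 to 61.3 CPM in this gate, below each E2 library and above each E2 + P4 library. The estrogen comparison averages these steps (0.15, adjusted p = 0.508 in edgeR), and E2 alone against no hormone was not tested. The difference of the Plod2 change with P4 between gates did pass, at 1.04 on the log2 scale (adjusted p = 0.00123) in the Tnc gate and -0.71 (adjusted p = 0.00941) in the Dpp4 gate. This interaction test was added after the data were seen. By that test Loxl4 (0.86, adjusted p = 0.0348) and Loxl1 (-0.37, adjusted p = 0.0175) also differed in the Dpp4 gate. These were 1 of 8 enzymes in the Tnc gate, where 2.77% of genes passed, and 3 of 8 in the Dpp4 gate, where 4.73% did, and the Dpp4 count was 0 to 4 with 1 library left out. Col1a1 rose with P4 in the Tnc gate (0.88, SE 0.14, adjusted p = 0.0196). In the Fabp4 gate Col1a1 was at 3592 to 6553 CPM with E2 and 7761 to 9260 CPM with E2 + P4. The Gdf10 gate had 3683 to 4624 and 6408 to 7375 CPM, also without overlap. Those of the Dpp4 gate overlapped, at 2332 to 3813 and 2472 to 3197 CPM.

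PBDE changed no enzyme detectably. Low PBDE against none passed for 0 of 8 in each gate, where 0%, 0.00816%, 0% and 0.0178% of genes passed in the Dpp4, Fabp4, Tnc and Gdf10 gates, and high PBDE likewise for 0 of 8 (0.0541%, 0.351%, 0.0336% and 0.365%). The 64 log2 changes lay between -0.63 and 0.46, with a lowest adjusted p of 0.103 in edgeR's quasi-likelihood test. Of the Dpp4-gate changes, those of 1 enzyme with low and of 2 with high PBDE had an unadjusted p under 0.05, where 4.75% and 19.3% of genes had. In the Fabp4, Tnc and Gdf10 gates none did, where 3.08%, 2.29% and 3.77% of genes had with low and 16.1%, 13.2% and 14.2% with high PBDE, and DESeq2 passed no enzyme.

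Because Col1a1 rose more than the enzymes in the Tnc gate, their UMIs per 1000 Col1a1 UMIs were also taken, as a description. On this ratio scale all 8 enzymes had a lower mean with hormone, as 97.6% of all genes tested did, and for 6 of them the hormone libraries lay wholly below the others, as for 89% of all genes. Most genes were thus lower relative to Col1a1, and the counts are not particular to the enzymes. Lox went from 130 ± 14.1 (SD, n = 3) without hormone to 43.6 ± 18.7 with E2 and 22.8 ± 3.29 with E2 + P4, and Loxl2 from 52.2 ± 6.16 to 24.0 ± 4.95 and 16.1 ± 1.29. Plod1 went from 14.8 ± 1.59 to 9.56 ± 2.44 and 5.76 ± 0.285, and Plod3 from 15.2 ± 2.29 to 6.35 ± 1.83 and 3.44 ± 0.728. Loxl1 and Plod2, the enzymes that rose most, held closest to the collagen: Loxl1 was at 97.4 ± 14.4, 78.6 ± 11.3 and 57.8 ± 7.70, and Plod2 at 15.0 ± 0.801, 12.2 ± 3.05 and 9.14 ± 1.54, with overlapping libraries. In the Dpp4 and Fabp4 gates no enzyme was set apart on this scale (13.3% and 2.85% of genes were), and in the Gdf10 gate 1 was (5.16% of genes), Loxl2, at 31.0 to 43.0 without hormone and 19.9 to 28.7 with it. These counts take both hormone treatments together. In the Fabp4 gate, where Col1a1 was higher with E2 + P4, each enzyme had a lower mean with E2 + P4 than with E2. Lox there was at 71.5 ± 11.0 without hormone, 71.2 ± 19.4 with E2 and 33.9 ± 1.86 with E2 + P4. The share of all genes in this step was not taken, so the count cannot be read as particular to the enzymes.

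**Figure D5:**
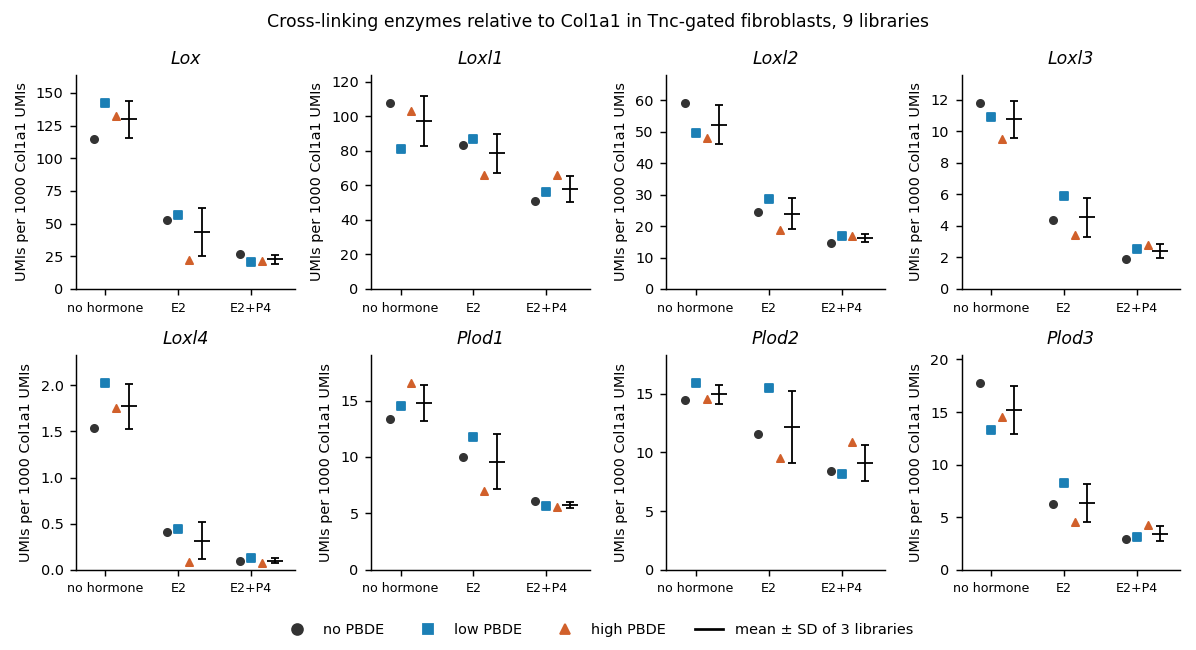
UMIs of each enzyme per 1000 Col1a1 UMIs in the Tnc gate (linear axes from 0), by hormone state, with 1 point per library marked by PBDE level and the mean ± SD of 3 libraries beside them. Each mean is lower with E2 than without hormone and lower again with E2 + P4, with the smallest differences relative to the level for Loxl1 and Plod2.

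The rest of the collagen pathway was read from lists of its known steps. In the Tnc gate, where 15.3% of all genes rose and 14.5% fell, all 8 fibrillar collagen genes tested rose with estrogen (median log2 change 1.69), with Col11a1, a chain that sets fibril diameter, changing most (3.29, SE 1.00, adjusted p = 0.0322). Of 9 prolyl hydroxylation genes 8 rose (median 0.55), led by P4ha3, a catalytic subunit of prolyl 4-hydroxylase (3.02, SE 0.40, adjusted p = 0.000468). Chaperones and glycosyltransferases of procollagen rose in 9 of 11 cases (median 0.66), led by the prolyl isomerase Fkbp11 (1.73, SE 0.10, adjusted p = 7.3e-06). Thus the lysyl hydroxylases Plod1 and Plod2 rose beside most genes that act on procollagen in the endoplasmic reticulum, and Plod3 did not pass. Among 6 genes of propeptide removal 3 rose, led by Adamts14 (0.94, adjusted p = 0.00387), and 2 fell, led by the enhancer protein Pcolce2 (-1.52, adjusted p = 2.1e-05). Among 12 partners of the lysyl oxidases and genes of copper supply 5 rose, led by Postn, a matricellular protein that binds the oxidase activator Bmp1 (3.105, SE 0.34, adjusted p = 0.000177), and 2 fell, led by the copper transporter Slc31a2 (-0.61, adjusted p = 0.00585). Of 3 other cross-linking enzymes 2 rose, led by transglutaminase 2, Tgm2 (1.00, adjusted p = 0.046). Of 7 fibrillar collagen genes and 9 prolyl hydroxylation genes, 3 and 1 rose in the Dpp4 gate, where 5.7% of all genes did, 2 and 2 rose in the Fabp4 gate (7.12%), where Col5a3 also fell, and 0 and 0 passed in the Gdf10 gate (2.14% rose).

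The remaining groups were 1 library each and allow no test, so only counting intervals are given. In the Tnc gate VCD_E2_ICI was below VCD_E2 with intervals apart for 5 of 8 enzymes (11.1% of all genes) and above it for none (7.2%). Plod2 was at 51.6 CPM (44.5 to 59.5) against 108 CPM (98.5 to 117.5), Loxl1 at 531 CPM (508 to 555) against 778 CPM (753 to 804), and Plod1 at 58.4 CPM (50.9 to 66.8) against 92.9 CPM (84.3 to 102). Of these, Plod2 and Plod1 with ICI were within the range of the libraries without hormone, and Loxl1 was above it. The others were Loxl2, at 164 against 227 CPM, and Lox, at 323 against 488 CPM. Lox with ICI was below its range of 372 to 522 CPM without hormone. For the Dpp4 gate, 6 enzymes were lower with ICI (16% of genes) and none was higher (11.7%), with Lox at 81.1 against 264 CPM. In the Fabp4 gate 2 were lower (11.1%), Lox and Plod2, and none was higher (6.7%), and in the Gdf10 gate Plod2 was lower (4.62%) and Loxl1 higher, at 352 against 309 CPM (4.56%). Intact mice were above VCD_Vehicle with intervals apart for 3 of 8 enzymes in the Tnc gate (9.97% of genes) and below it for 1 (5.98%). They had more Loxl1, at 593 CPM (576 to 610.5) against 349.6 CPM (335 to 364), more Plod2, at 67.1 CPM (61.5 to 73.2) against 46.9 CPM (41.7 to 52.5), and more Lox, at 402 CPM (388 to 417) against 372 CPM (357 to 387), but less Loxl2, at 138 CPM (129.8 to 147) against 192 CPM (182 to 203). In the Dpp4 gate 1 enzyme was above (5.16%), Lox at 104 CPM (98.5 to 110) against 57.8 CPM (53.7 to 62.2), and 2 were below (5.86%), Loxl1 and Loxl2. In the Fabp4 gate Loxl1 was above (6.41%) and Lox and Loxl2 were below (5.23%), and in the Gdf10 gate none was above (3.84%) and Loxl1 and Loxl2 were below (3.79%). VCD_Vehicle_NormEnv was also above VCD_Vehicle with intervals apart for 2 of 8 enzymes in the Tnc gate (5.16% of genes), Loxl1 and Plod1, and below it for none (5.87%). In the Dpp4 gate 3 were above (5.83%) and 1 was below (8.14%), in the Fabp4 gate 1 was above (10.1%) and 1 below (8.26%), and in the Gdf10 gate none was above (2.42%) or below (3.62%). Intervals apart between 2 libraries thus also occurred between 2 vehicle groups.

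Over the 48 sums of library and gate, the genes whose log2(CPM + 1) ran most like each enzyme among 7702 genes were named as a description, the sums sharing libraries and gates. Plod1 ran with Col6a3 (r = 0.96) and Col6a1 (0.94), chains of the microfibrillar collagen VI, and with 1110008F13Rik (0.94). Loxl4 ran with the transcription factor gene Prrx1 (r = 0.94), Man1a (0.94) and Ildr2 (0.93), and Loxl1 with Dsel (0.93), the proteoglycan gene Vcan (0.91) and 6030419C18Rik (0.91). Loxl2 ran with Oaf (r = 0.90), Rab2a (0.89) and Lrrc59 (0.88), and Lox with Egr2 (0.89), Thbs1 (0.88), whose product binds collagen fibrils, and Rnf144a (0.87). Plod2 (Ssr3, 0.79), Plod3 (Ap2m1, 0.80) and Loxl3 (Igsf10, 0.72) had looser partners.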

How the data were processed

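Mammary gland cells of 12 libraries (1 per group) were profiled with Chromium 3′ v3 chemistry. The authors deposited unnormalised UMI counts per gene and barcode, made per the labels with Cell Ranger 3.1.0 on mm10. The labels name a HiSeq and the study's methods a NovaSeq instrument. No column lacked a sample.

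Barcodes were kept from 500 genes and 1000 UMIs upward if 5% or less of the UMIs were mitochondrial. A cell type needed at least 3 of its 6 marker genes and more than any other type. For each gate the depth-scaled log levels of its panel genes were averaged per cell, and this average was made a z score over all fibroblasts. A gate needed a z score above 0 that exceeded the next by 0.5. No doublet caller was run; leaving out cells above the 95th percentile of UMIs stood in for it. Counts were summed per library and gate and tested with edgeR 4.0.16 (quasi-likelihood, TMM, Benjamini-Hochberg over all genes tested, threshold 0.05) in R 4.3.3, with DESeq2 1.42.0 as an alternative. The hormone fits left 4 residual degrees of freedom. The fits were checked on simulated counts. Intervals are exact Poisson intervals at 95%. No replicate number pairs samples, since each group had 1 library.

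The 8 genes and Col1a1 are always named, and of each pathway list the gene with the largest rise and the largest fall past the threshold. For likeness, the 3 genes with the highest Pearson r with a mean of at least 10 CPM were taken, markers left out. The enzymes, markers and lists were chosen with earlier results of these data known. Alternatives were another count test, no TMM, no filter on low counts, other gating, mitochondrial and depth limits, shared barcodes left out, the second vehicle library added, a file name tag term and each library left out in turn.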

Additional observations from a re-analysis of the deposited data

Results flagged for a closer look

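Within 32 sets of 6 hormone libraries (8 enzymes in 4 gates), 2 held a library that stood apart by Dixon's criterion, which chance alone meets in about 1 in 20 sets. Plod1 in the Tnc gate was at 121 CPM in VCD_E2_P4, above the other 5 hormone libraries (gap 0.657 of the range). Plod2 in the Gdf10 gate was at 157 CPM in VCD_Low_E2 (gap 0.736 of the range), and without it the log2 change of Plod2 with estrogen was 0.57 (adjusted p = 0.0678, edgeR).

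The change with estrogen differed between a gate and the mean of the other 3 in 12 cases, each given as a difference of log2 changes. In the Tnc gate these were Loxl1 (1.11), Plod2 (1.00), Loxl2 (0.63), Plod1 (0.46) and Loxl4 (-1.46). In the Dpp4 gate these were Lox (1.39), Loxl4 (0.70), Loxl1 (-0.57) and Plod2 (-0.71). In the Fabp4 gate these were Plod1 (-0.58) and Plod2 (-0.50), and in the Gdf10 gate Loxl1 (-0.49).

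The change with P4 on top of E2 differed in 4 cases, in a test added after the data were seen. Plod2 differed by 1.04 in the Tnc gate and by -0.71 in the Dpp4 gate. In the Dpp4 gate Loxl4 differed by 0.86 and Loxl1 by -0.37. Neither the cells' depth nor the makeup of the gates was tested as the source of any of these differences.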

How the results depend on the processing

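The 5 enzymes called with estrogen in the Tnc gate were the same 5 in all 9 fits that left out 1 library and in 9 of 11 other alternatives, and the others gave 4 (cells thinned) and 5 (single lead gene gate, with Lox and without Loxl4). The 2 called in the Dpp4 gate became 1 with cells thinned, 0 with a file name tag term and 0 to 3 with 1 library left out (0 without VCD_Low_PBDE). The 1 called in the Gdf10 gate became 2 with DESeq2, cells thinned, the deepest cells left out, a gate margin of 1, no filter or the second vehicle library, 0 with a tag term or single lead gene gates, and 0 to 2 with 1 library left out (2 without VCD_E2 or VCD_Low_E2_P4, 0 without VCD_Low_PBDE). For P4, DESeq2 called 1 in the Dpp4 gate, and in the Tnc gate 1 was called with a 10% mitochondrial limit, DESeq2, a gate margin of 1, the second vehicle library or single lead gene gates and 2 without a filter, against 0. For the difference between gates with estrogen, the Fabp4 count of 2 became 0 with single lead gene gates and 0 to 4 with 1 library left out, and the Gdf10 count of 1 was 1 to 2 (2 without VCD_High_PBDE_E2). For that with P4, the Dpp4 count of 3 became 1 with single lead gene gates and 0 to 4 with 1 library left out (0 without VCD_E2, VCD_E2_P4 or VCD_Low_E2_P4). Over 34 log2 changes past the threshold, 652 alternatives kept the direction and the call, 50 lost the call and 1 turned the direction; of those not past it, 1145 stayed, 21 passed and 77 turned. The cause of these changes was not tested.

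Log2 changes that turned sign, with gene and gate, were these. With a 10% mitochondrial limit, Loxl4 Fabp4 -0.015, Loxl4 Gdf10 0.033 (estrogen) and Loxl3 Tnc 0.0067, Plod3 Tnc 0.050 (P4). With DESeq2, Plod3 Tnc 0.017 (P4). With cells thinned to 5000 UMIs, Plod1 Dpp4 0.047, Plod1 Fabp4 0.010, Loxl3 Tnc 0.088, Loxl4 Gdf10 -0.38 (P4) and Loxl3 Gdf10 -0.014 (gate against gates). Without the deepest cells, Loxl4 Gdf10 0.10 (estrogen) and Lox Tnc -0.0050, Plod3 Tnc 0.037 (P4). With a file name tag term, Loxl4 Fabp4 -0.042, Loxl4 Gdf10 0.14 (estrogen) and Plod3 Tnc 0.0068 (P4). With a gate margin of 1, Loxl4 Fabp4 -0.14, Loxl4 Gdf10 0.18 (estrogen) and Lox Dpp4 0.079, Plod3 Tnc 0.029, Loxl4 Gdf10 -0.21 (P4). Without TMM, Loxl1 Dpp4 -0.075 (P4) and Loxl3 Tnc 0.028, Loxl3 Gdf10 -0.022 (gate against gates). Without a filter on low counts, Plod3 Tnc 0.020 (P4). With VCD_Vehicle_NormEnv added, Plod3 Tnc 0.0075 (P4). With single lead gene gates, Loxl4 Fabp4 -0.38, Plod3 Tnc -0.022, Loxl4 Gdf10 0.095 (estrogen) and Plod1 Fabp4 0.023, Plod3 Tnc 0.37, Lox Gdf10 0.049, Loxl4 Gdf10 -0.90 (P4) and Loxl2 Dpp4 0.010, Plod3 Fabp4 -0.0084, Loxl2 Tnc -0.36, Loxl3 Gdf10 -0.084 (gate against gates). With 1 library left out, the ranges of those that turned were, with estrogen, Loxl2 Dpp4 -0.14 to 0.071, Loxl4 Fabp4 -0.20 to 0.19, Plod3 Fabp4 -0.071 to 0.20, Lox Tnc -0.46 to 0.091, Lox Gdf10 -0.43 to 0.041, Loxl4 Gdf10 -0.14 to 0.14, and with P4, Lox Dpp4 -0.69 to 0.46, Loxl1 Dpp4 -0.051 to 0.066, Loxl2 Dpp4 -0.25 to 0.14, Plod1 Dpp4 -0.26 to 0.033, Loxl3 Fabp4 -0.027 to 0.17, Plod1 Fabp4 -0.17 to 0.15, Lox Tnc -0.17 to 0.18, Loxl3 Tnc -0.078 to 0.044, Plod3 Tnc -0.11 to 0.18, Lox Gdf10 -0.52 to 0.20, Loxl4 Gdf10 -0.091 to 0.21.

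No paired analysis was possible because each group was 1 library with the same replicate number, so that libraries were tied only by the library block between gates and by the PBDE term. Loxl4 was read from few UMIs, and the 9-library layout assumes that PBDE and hormone effects add.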

Other observations

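Beside the enzymes, other collagen pathway genes changed in the gates where few enzymes did. With estrogen in the Fabp4 gate, where 7.12% of all genes rose and 6% fell, 4 of 12 lysyl oxidase partners and copper genes rose, led by fibronectin, Fn1 (log2 change 2.68, SE 0.20, adjusted p = 0.000133 in edgeR's quasi-likelihood test), and 3 fell, led by elastin, Eln (-0.94, SE 0.14, adjusted p = 0.00305). In the Dpp4 gate Fn1 was instead the gene that fell most in that list (-0.35, SE 0.07, adjusted p = 0.0229), and Thbs1 rose (1.08, SE 0.22, adjusted p = 0.0225). Tgm2, whose product joins glutamine to lysine residues, rose in the Dpp4 gate (3.40, SE 0.73, adjusted p = 0.0272) and in the Fabp4 gate (1.72, SE 0.40, adjusted p = 0.0215). These genes were picked by their changes in single gates of the same libraries, so their interaction is no independent test of a difference between gates. In the interaction of gate and estrogen, Fn1 differed from the other 3 gates by 2.01 on the log2 scale in the Fabp4 gate (adjusted p = 9.7e-07) and by -2.03 in the Dpp4 gate (adjusted p = 1.2e-07), by 0.93 in the Tnc gate (adjusted p = 0.00022) and by -0.91 in the Gdf10 gate (adjusted p = 0.00231). Eln differed by 2.56 in the Tnc gate (adjusted p = 1.2e-07), by -1.16 in the Fabp4 gate (adjusted p = 0.001) and by -0.79 in the Dpp4 gate (adjusted p = 0.00458). It did not pass in the Gdf10 gate (-0.62, adjusted p = 0.0637). Thbs1 and Tgm2 differed by 0.74 (adjusted p = 0.00168) and 2.17 (adjusted p = 0.000328) in the Dpp4 gate and by -1.03 (adjusted p = 0.00084) and -1.50 (adjusted p = 0.0203) in the Gdf10 gate, while neither passed in the Fabp4 gate (0.23, adjusted p = 0.475, and 0.15, adjusted p = 0.930) or the Tnc gate (0.06, adjusted p = 0.830, and -0.82, adjusted p = 0.0711).

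With P4 on top of E2 in the Tnc gate, where 0.815% of all genes rose and 1.05% fell, 4 of 8 fibrillar collagen genes, 1 of 9 prolyl hydroxylation genes and 2 of 11 chaperone genes rose, led by Col1a1 (0.88), P3h1 (0.53, SE 0.10, adjusted p = 0.0365) and Sparc (0.86, SE 0.14, adjusted p = 0.02). Pcolce2 fell by 0.71 on the log2 scale (SE 0.14, adjusted p = 0.0359). None of 12 oxidase partners and copper genes passed this comparison in edgeR.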
